A study of Canis lupus familiaris with 13 samples.

Results

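Gene expression was compared between the second insulin-stimulated biopsy (sample 2) and the basal biopsy (sample 0) of the same 3 dogs, numbered 2, 3 and 4. Both biopsies came from the biceps femoris, a thigh muscle, of wild-type animals aged 9 to 10 months. The comparison was chosen by the titles of the libraries and used 6 of the 13 in the series, 3 basal and 3 at sample 2, paired by dog. Basal libraries are labelled as basal insulin and the others as insulin stimulated, and the labels give no dose, route or time and do not say what the sample number stands for. All groups therefore shared genotype, age range, muscle and biopsy method, and the replicates are separate animals. Every basal library is sample 0 and every insulin library has a higher sample number. Insulin therefore cannot be told apart from anything else that differs with the sample number, such as sampling order, elapsed time or an earlier biopsy. The sample 1 libraries of the same dogs (n = 3) entered the fit to share its estimate of spread, and serve below to show where sample 2 differed from sample 1. Dog 1 had no basal library and entered no main comparison.

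Skeletal muscle takes up much of the glucose that insulin clears from the blood. Insulin acts there through the kinase AKT, which holds FoxO transcription factors out of the nucleus and so lowers the transcription of their targets, among them ubiquitin ligases of muscle wasting. Insulin also moves muscle from burning fatty acids towards burning glucose, a switch in which the pyruvate dehydrogenase kinases take part.

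The 6 libraries held between 45200416 and 68278235 counts, and between 16516 and 19147 genes had a count in each. ACTA1, the skeletal muscle actin, took 10.8% to 13.2% of the counts, and the 10 most abundant genes took 35.5% to 38.0%. The skeletal muscle markers were high in every library, with a summed level between 254200 and 297900 CPM (counts in each 1000000 of the library total). Summed marker levels here and below use the unadjusted library total, and levels of single genes use the adjusted one. Of 30951 genes in the table, 14265 had enough counts to be tested. The labels name no batch.

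At sample 2, 5 genes differed from basal at an adjusted p under 0.05, and each of them stood more than 2-fold away in every dog. The genes that fell were TXNIP, TRIM63 and ZFAND5. Those that rose were SLC35E4 and SLC25A25. These 5 genes are 0.0351% of the genes tested, 0.014% higher and 0.021% lower, by edgeR's quasi-likelihood test with the dog as a block and Benjamini-Hochberg adjustment. At an unadjusted p under 0.05 there were 805 genes, or 5.64% of those tested, of which 351 (2.46%) were higher and 454 (3.18%) lower. This threshold is met by about 5% of genes when none differs.

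**Figure D1:**
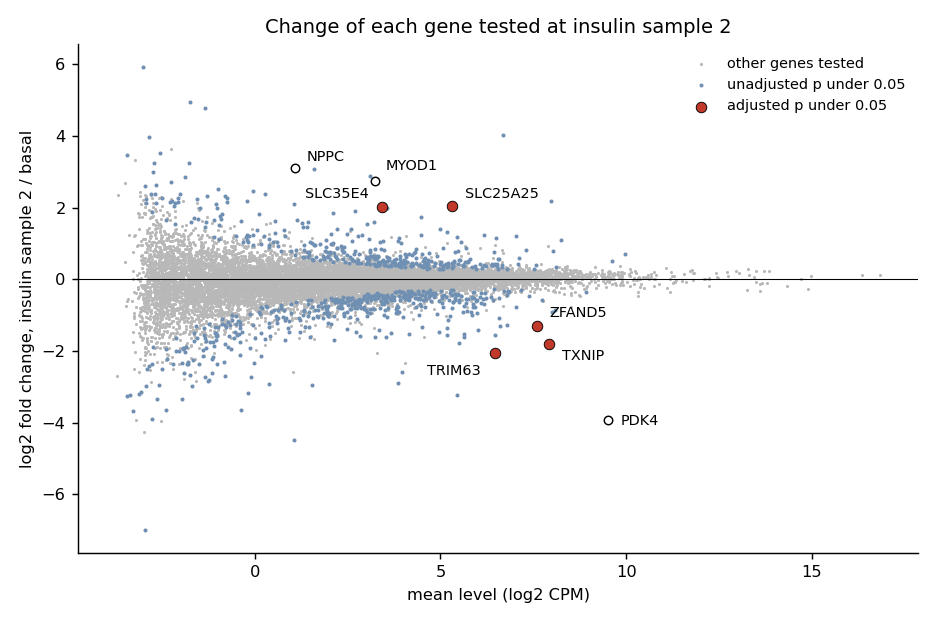
Each point is a gene tested, with its mean level over the 9 libraries of the fit (log2 CPM) on the horizontal axis and its fitted log2 fold change at insulin sample 2 against basal on the vertical axis. Red points are the 5 genes past the adjusted threshold, blue points have an unadjusted p under 0.05, and the open circles for NPPC, MYOD1 and PDK4 mark genes that did not pass the adjusted threshold although their fitted changes (3.1, 2.74 and -3.92) were larger than those of the 5.

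TXNIP (ENSCAFG00000011405) encodes an arrestin-like protein that restrains glucose uptake. It stood at 382, 545 and 446 CPM in the basal libraries of dogs 2, 3 and 4 and at 119, 172 and 108 CPM at sample 2. Every sample 2 library lay far below every basal library. Means were 458 ± 82.5 and 133 ± 34.5 CPM (SD, n = 3 dogs). The fitted log2 fold change was -1.80 ± 0.15 (SE; edgeR adjusted p = 0.00715), a 3.49-fold fall.

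TRIM63 (ENSCAFG00000012671) encodes MuRF1, a ubiquitin ligase that marks myofibrillar proteins for breakdown. Its basal levels were 229, 133 and 192 CPM, and its levels at sample 2 were 51.4, 33.5 and 46.4 CPM. The groups did not overlap, and the 3 dogs moved by nearly the same amount, with log2 changes of -2.16, -1.99 and -2.04. The fitted log2 fold change was -2.06 ± 0.17 (edgeR adjusted p = 0.00715), a 4.18-fold fall.

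ZFAND5 (ENSCAFG00000001811) encodes a zinc finger protein that binds ubiquitin and the proteasome. It went from 394, 239 and 306 CPM in basal muscle to 147, 102 and 125 CPM at sample 2. Again every dog was lower and the groups were apart, with a log2 fold change of -1.31 ± 0.12 (edgeR adjusted p = 0.0114), a 2.49-fold fall.

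SLC25A25 (ENSCAFG00000020091) encodes a calcium-regulated carrier that exchanges adenine nucleotides and phosphate across the inner mitochondrial membrane. It rose from 16.0, 9.49 and 12.8 CPM to 45.2, 51.2 and 57.5 CPM. The lowest sample 2 library was well above the highest basal one. The log2 fold change was 2.05 ± 0.21 (edgeR adjusted p = 0.0169), a 4.14-fold rise.

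SLC35E4 (ENSCAFG00000012834) encodes a member of a family of nucleotide sugar carriers. It rose from 4.04, 2.16 and 4.22 CPM to 11.2, 10.4 and 21.1 CPM, with no overlap between the groups. The log2 fold change was 2.02 ± 0.20 (edgeR adjusted p = 0.0164), a 4.05-fold rise.

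**Figure D2:**
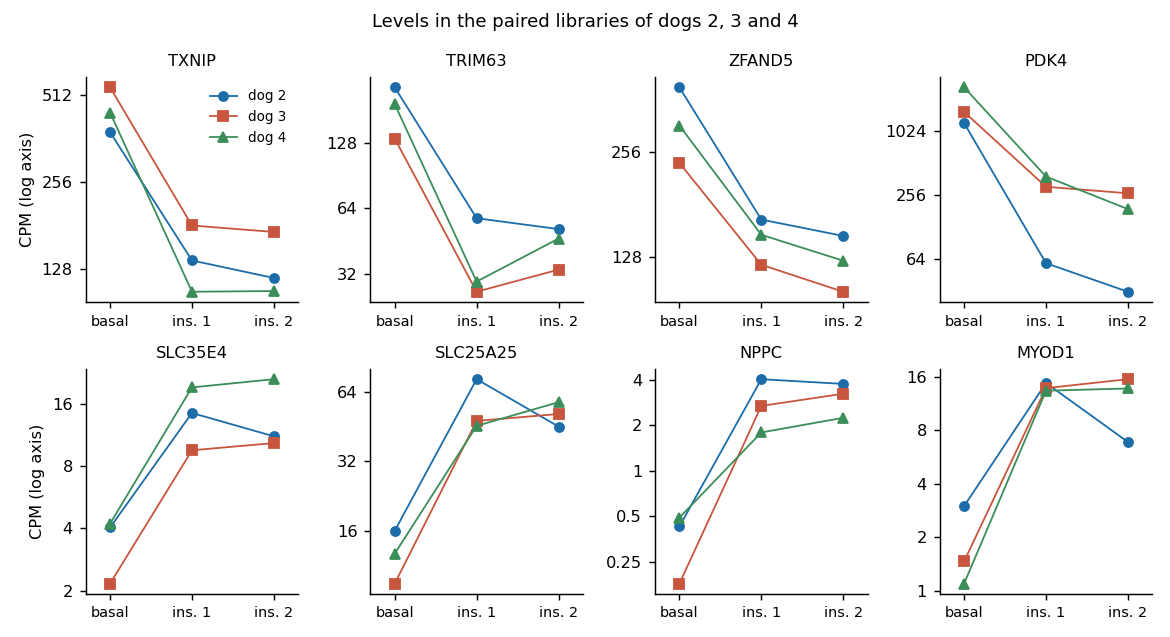
Level of 8 genes (CPM, log axis, a scale of its own in each panel) in the basal, insulin sample 1 and insulin sample 2 libraries of dogs 2, 3 and 4, with a line for each dog. In every panel the 3 sample 2 points lie on the same side of the 3 basal points, and the step from sample 1 to sample 2 is smaller than the step from basal to sample 1 in every dog.

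The calls rested on few libraries, though no fold change of the 5 genes turned. With each dog, or each of the 6 libraries, left out in turn (9 fits), TXNIP and TRIM63 passed in 6 fits each, SLC35E4 and SLC25A25 in 4 each and ZFAND5 in 2. Their log2 fold changes over these fits ran from -1.88 to -1.65 for TXNIP, from -2.15 to -1.93 for TRIM63, from -1.37 to -1.23 for ZFAND5, from 1.87 to 2.28 for SLC35E4 and from 1.86 to 2.32 for SLC25A25. Without sample 2 of dog 3 no gene passed (599 had an unadjusted p under 0.05). Without sample 2 of dog 2 the passing genes were MYOD1, SLC25A25 and SLC35E4, without sample 2 of dog 4 they were TRIM63 and TXNIP, and without basal of dog 4 they were TXNIP and ARID5B. Removing a basal library of the other dogs gave longer lists that held all 5, with 23 genes without basal of dog 2 and 9 without basal of dog 3. Without the whole of dog 2, 3 or 4 the counts were 15, 5 and 2, of which 4, 2 and 1 were among the 5.

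The paired model also mattered. Without the dog as a block no gene passed (516 at an unadjusted p under 0.05). DESeq2, on the same 9 libraries and the same model, called 126 genes, 52 higher and 74 lower, all 5 among them. Without the filter on low counts edgeR called 72 genes, again with all 5. On the 6 basal and sample 2 libraries alone edgeR called 4 genes, 0 higher and 4 lower, and TXNIP and TRIM63 were the 2 of the 5 among them. ZFAND5, SLC35E4 and SLC25A25 did not pass there. In the fit over 13 libraries 7 genes passed, with TXNIP, TRIM63 and SLC35E4 among them but not ZFAND5 or SLC25A25.

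Beyond the 5, the genes of lowest p were taken in each direction up to 12, so the values that follow are of genes that did not pass. Among the lower ones, PDK4 (ENSCAFG00000002129), which inactivates pyruvate dehydrogenase by phosphorylation, had the largest difference. Its basal levels of 1202, 1529 and 2597 CPM stood against 31.7, 265 and 188 CPM at sample 2. The groups were far apart, but the size differed between dogs, with log2 changes of -5.25, -2.53 and -3.79, and the log2 fold change of -3.92 ± 0.53 had an edgeR adjusted p of 0.113. PDK4 passed without basal of dog 2 or without basal of dog 3, in the fit over all 13 libraries and with DESeq2. Of 12 tested genes of pyruvate dehydrogenase control, 1 was higher (PDP2) and 1 lower (PDK4) at an unadjusted p under 0.05. Over all genes these shares were 2.46% and 3.18%, and the list median was -0.05.

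HBP1 (ENSCAFG00000003939), a transcriptional repressor of the cell cycle, stood at 73.9, 91.8 and 105 CPM in basal and 42.3, 47.5 and 51.0 CPM at sample 2 (log2 fold change -0.93 ± 0.12, edgeR adjusted p = 0.0552). The groups did not overlap. SELENOP, the selenium carrier of plasma, ATF7IP, a chromatin factor, and AKAP13, an anchoring protein for protein kinase A, were also lower without overlap, with log2 fold changes of -1.07, -0.98 and -0.91 and the same edgeR adjusted p of 0.0617. LMOD2, which sets the length of the thin filament, went from 32.2, 13.7 and 13.8 CPM to 10.5, 5.21 and 4.96 CPM. All 3 dogs were lower, by a fitted -1.50 ± 0.21 (edgeR adjusted p = 0.0617).

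For 3 of the lower genes the groups overlapped, while each dog was lower at sample 2 than in its own basal library. DUSP10, a phosphatase of stress-activated kinases, stood at 123, 26.3 and 26.2 CPM in basal and at 51.0, 14.8 and 13.5 CPM at sample 2. Dog 2 was the high one at both. USP54, of the ubiquitin peptidase family, showed a log2 difference of -1.15 ± 0.14 (edgeR adjusted p = 0.0552), and ABCC5, an exporter of cyclic nucleotides, one of -1.29 ± 0.20 (adjusted p = 0.113).

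Among the higher genes that did not pass, NPPC (ENSCAFG00000011135), the gene of C-type natriuretic peptide, stood at 0.428, 0.179 and 0.490 CPM in basal and at 3.77, 3.24 and 2.25 CPM at sample 2. All sample 2 libraries were higher, at a low level, with a log2 fold change of 3.1 ± 0.43 (edgeR adjusted p = 0.0617). NOS1, the neuronal nitric oxide synthase of muscle, went from 1.52, 1.88 and 1.79 CPM to 5.87, 7.10 and 5.82 CPM. The spread within each group was small, and the log2 fold change was 1.86 ± 0.27 (edgeR adjusted p = 0.0733).

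MYOD1 (ENSCAFG00000009066), the factor that commits cells to muscle, stood at 3.00, 1.46 and 1.10 CPM in basal and at 6.89, 15.6 and 13.8 CPM at sample 2. Dog 2 had the highest basal and the lowest sample 2 level. The log2 fold change was 2.74 ± 0.45 (edgeR adjusted p = 0.154), and MYOD1 passed when dog 2 or either of its 2 libraries was left out, and with DESeq2. KCNJ11, the pore of the ATP-sensitive potassium channel, went from 6.28, 3.25 and 3.12 CPM to 12.9, 22.3 and 15.0 CPM. Its groups were apart as well (log2 fold change 1.98 ± 0.33, edgeR adjusted p = 0.154).

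The remaining higher genes under the rule were TPPP, which promotes tubulin polymerization (log2 fold change 1.61), KLHL25, an adaptor of a ubiquitin ligase (1.60), MID1IP1, a partner of acetyl-CoA carboxylase (1.23), POC1A, a centriole protein (1.17), RRAD, a small GTPase that inhibits calcium channels (1.1), and ACOT11, a thioesterase of fatty acyl-CoA (1.06). In all 6 the groups did not overlap, and the edgeR adjusted p lay between 0.154 and 0.215. RRAD was well expressed, with 222, 179 and 153 CPM in basal and 435, 362 and 386 CPM at sample 2.

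**Figure D3:**
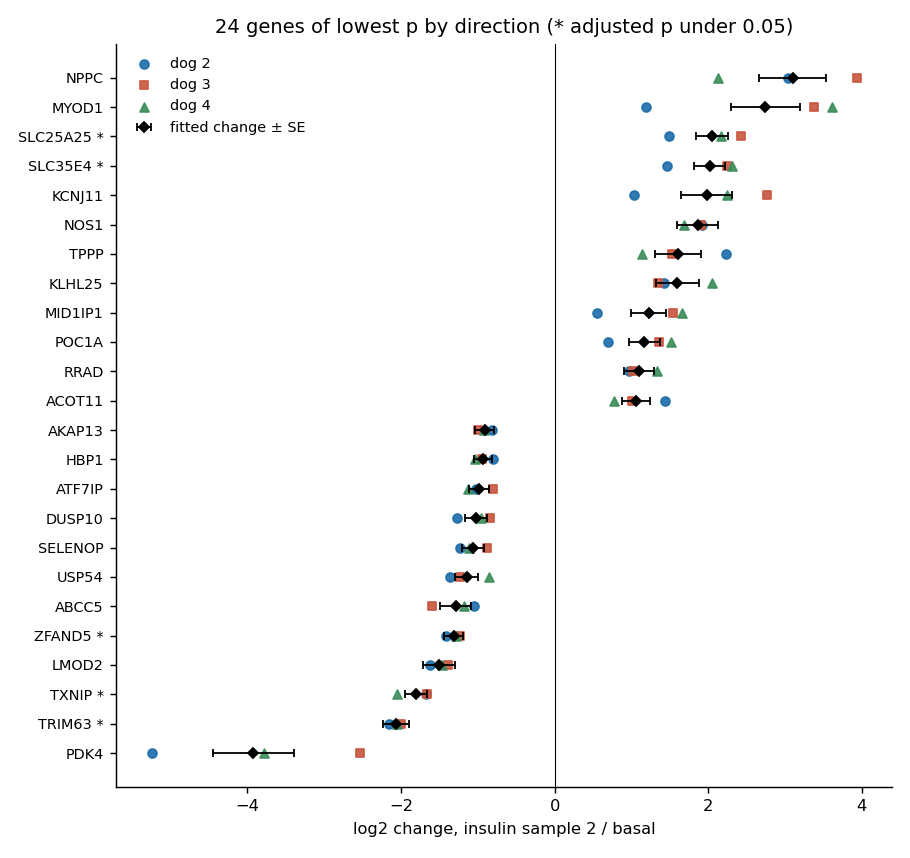
Log2 change at insulin sample 2 against basal for the 12 higher and 12 lower genes of lowest p that had a symbol, a mean log2 CPM of at least 1 and the same direction in dogs 2, 3 and 4. Coloured symbols are the single dogs, black diamonds are the fitted changes with their SE, and asterisks mark the 5 genes past the adjusted threshold. TRIM63, ZFAND5, HBP1, AKAP13 and NOS1 have the dogs close together, while in PDK4, MYOD1 and KCNJ11 the dogs are spread widely.

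Across all genes tested, 3423 (24% of 14265) moved in the same direction in all 3 dogs, 1729 (12.1%) higher and 1694 (11.9%) lower. The levels of the 2 groups did not overlap for 1112 genes (7.8%), of which 528 (3.7%) were higher and 584 (4.09%) lower. With 3 dogs, many signs coincide and many groups separate even when no gene differs. These shares were not tested and do not by themselves show a response, and a single gene without overlap is weak evidence. Among the 9287 genes with a mean log2 CPM of at least 1, 14 were over 2-fold higher in every dog and 15 over 2-fold lower, and over all 14265 genes these counts were 47 and 68. Besides genes already named, the first set held CBFA2T3, DGAT2, G0S2, NR0B2 and PDGFA, and the second held ANGPTL4, ARID5B, CPT1A, NR4A2 and PPBP, a selection made after their values were seen. Genes without a symbol, 1 in the first set and 4 in the second, are not named. PPBP is a platelet chemokine, with 1.43, 8.58 and 5.53 CPM in basal and 0.0738, 0.244 and 0.333 CPM at sample 2 (log2 fold change -4.49 ± 0.95, edgeR adjusted p = 0.292). It passed in the fit on the 6 libraries, without dog 2 and with DESeq2.

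The list of FoxO targets and muscle wasting genes held 3 of the 5 genes that passed. All 31 listed genes found in the table were tested: 0 were called higher and 3 lower, and at an unadjusted p under 0.05 there were 0 higher and 12 lower, beside 3.18% lower over all genes. The median log2 fold change of the list was -0.27, against -0.01 over all genes tested, and the dogs' own medians were -0.20, -0.47 and -0.32. The list was drawn up with earlier results of these data known and ZFAND5 and HBP1 were added to it for that reason, so its count is not independent evidence. With alternatives its median ran from -0.49 without dog 2 to -0.14 without basal of dog 4.

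FBXO32 (ENSCAFG00000001007), the other well known ubiquitin ligase of muscle wasting, did not pass. It stood at 62.9, 103 and 144 CPM in basal and at 69.9, 20.4 and 38.8 CPM at sample 2. Dogs 3 and 4 were lower and dog 2 slightly higher, which gave a log2 fold change of -1.41 ± 0.44 (edgeR adjusted p = 0.676). FBXO32 passed without dog 2, without basal of dog 2 and with DESeq2.

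Further members of the list with low unadjusted p, chosen after their values were seen, were KLHL38, a protein of muscle (log2 fold change -1.0), CITED2, a transcriptional coregulator (-1.70), and PIK3IP1, an inhibitor of phosphoinositide 3-kinase (-1.25). CITED2 went from 4.26, 15.3 and 5.32 CPM to 2.31, 2.04 and 2.23 CPM, without overlap. The FoxO factors themselves did not move together. FOXO1 stood at 5.47, 8.86 and 5.08 CPM in basal and at 8.46, 6.71 and 8.10 CPM at sample 2 (log2 fold change 0.30 ± 0.29, edgeR adjusted p = 0.986), and FOXO3 was lower in each dog (-0.65 ± 0.17, adjusted p = 0.418).

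Of the 29 insulin signalling genes tested none passed, and 0 were higher and 4 lower at an unadjusted p under 0.05 (2.46% and 3.18% over all genes), with a list median of -0.05. INSR, the insulin receptor, stood at 4.72, 12.2 and 11.8 CPM in basal and at 7.55, 7.61 and 9.95 CPM at sample 2. Dog 2 was higher and the others lower (log2 fold change -0.07 ± 0.27, edgeR adjusted p = 0.989). IRS2, an adaptor of the receptor, was at a low level, with 0.254, 0.477 and 0.746 CPM in basal and 0.166, 0.0750 and 0.183 CPM at sample 2 (-1.87 ± 0.88, edgeR adjusted p = 0.905). ENPP1, a membrane phosphodiesterase that interferes with the receptor, stood at 6.15, 5.09 and 4.62 CPM in basal and at 2.86, 2.47 and 2.36 CPM at sample 2, and its groups did not overlap (-1.04 ± 0.25, edgeR adjusted p = 0.349).

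Of 23 genes of glucose uptake and glycogen none passed, and the list median was 0.08. At an unadjusted p under 0.05 there were 2 higher and 0 lower (2.46% and 3.18% over all genes). SLC2A4, the insulin-responsive glucose transporter GLUT4, stood at 224, 148 and 196 CPM in basal and at 205, 122 and 178 CPM at sample 2, a log2 fold change of -0.18 ± 0.14 (edgeR adjusted p = 0.986). HK2, the hexokinase of insulin-sensitive tissue, differed by 0.05 ± 0.16 (adjusted p = 0.987), and this small value turned to -0.22 in the fit over 13 libraries. SLC2A1, the transporter GLUT1, went from 1.54, 1.45 and 2.05 CPM to 3.31, 3.30 and 3.53 CPM without overlap (1.03 ± 0.32, adjusted p = 0.613).

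PPP1R3C (ENSCAFG00000029146), which brings a phosphatase to glycogen, had 172, 44.8 and 41.3 CPM in basal and 287, 405 and 322 CPM at sample 2. The basal library of dog 2 stood apart from the other basal libraries. The log2 fold change was 2.19 ± 0.52 (edgeR adjusted p = 0.418), and it became 3.06 and passed without dog 2 or without its basal library. It also passed with DESeq2. G0S2 (ENSCAFG00000030095), an inhibitor of adipose triglyceride lipase, had the same pattern, with 39.7, 2.77 and 5.11 CPM in basal and 134, 192 and 172 CPM at sample 2. Its log2 fold change of 4.01 ± 0.95 (edgeR adjusted p = 0.418) became 5.58 without dog 2, and G0S2 then passed, as it did without basal of dog 2 and with DESeq2.

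In fat metabolism a few genes differed widely within lists whose medians lay between 0.02 and 0.15. Of 27 genes of fatty acid oxidation and PPAR targets none passed. At an unadjusted p under 0.05 there were 0 higher and 4 lower, beside 2.46% and 3.18% over all genes. These 4 were PDK4, ANGPTL4, UCP3 and CPT1A, the last of which stands outside the naming rule. PDK4 is also counted in the list of FoxO targets and ANGPTL4 in that of glucocorticoid response, so the counts of these lists are not separate. The list median was 0.02. ANGPTL4, a secreted inhibitor of lipoprotein lipase, stood at 6.31, 57.4 and 42.5 CPM in basal and at 2.16, 5.27 and 4.56 CPM at sample 2. Dog 2 began low, and all sample 2 libraries were below all basal ones (-2.90 ± 0.50, edgeR adjusted p = 0.209).

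UCP3, a mitochondrial carrier of skeletal muscle that follows fatty acid supply, stood at 287, 403 and 480 CPM in basal and at 211, 213 and 185 CPM at sample 2. The dogs were closer to each other at sample 2 than in basal (-0.91 ± 0.18, edgeR adjusted p = 0.240). Of 18 lipolysis and lipid droplet genes 2 were higher and 0 lower at an unadjusted p under 0.05 (2.46% and 3.18% over all genes). These 2 were G0S2 and DGAT2, which makes triglyceride. Of 19 fatty acid synthesis genes 1 was higher, MID1IP1, and 1 lower. SREBF1, the regulator of these genes, stood at 3.36, 2.40 and 3.99 CPM in basal and at 3.91, 4.27 and 3.59 CPM at sample 2 (0.34 ± 0.30, edgeR adjusted p = 0.986).

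Among 13 targets of the glucose sensors MondoA and ChREBP, TXNIP fell and 2 others were higher at an unadjusted p under 0.05. Over all genes 2.46% were higher and 3.18% lower at that threshold. ARRDC4, an arrestin of the same family as TXNIP, stood at 6.23, 7.47 and 5.25 CPM in basal and at 12.5, 11.7 and 9.40 CPM at sample 2. It was higher in every dog, where TXNIP was lower in every dog (0.83 ± 0.22, edgeR adjusted p = 0.424). For KLF10, a zinc finger repressor, it was 0.79 ± 0.19 (adjusted p = 0.377).

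Of 21 glucocorticoid response genes none passed, and at an unadjusted p under 0.05 there were 0 higher and 9 lower, beside 2.46% and 3.18% over all genes. The list median was -0.41, with -0.50, -0.50 and -0.09 in the dogs, and it ran from -0.55 to -0.27 under the alternatives. SGK1, a kinase induced by glucocorticoids, stood at 164, 18.9 and 85.9 CPM in basal and at 34.7, 13.3 and 17.2 CPM at sample 2. Dog 3 was low throughout (-1.77 ± 0.36, edgeR adjusted p = 0.273), and SGK1 passed without dog 3 or its basal library and with DESeq2. KLF15 (-1.04 ± 0.22, adjusted p = 0.273), a factor of amino acid and lipid use, and the enzyme GLUL (-0.56 ± 0.12, adjusted p = 0.273), which was picked after its value was seen, were lower in each dog.

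Immediate early genes are transcribed within minutes of a stimulus. Of 30 tested none passed, and the median was -0.48. At an unadjusted p under 0.05 there were 4 higher and 6 lower (2.46% and 3.18% over all genes). The dogs' medians were -0.67, -0.50 and 0.60, so dog 4 went the other way. The list median was 0.04 without dog 2 and -0.90 without dog 4. NR4A2, an orphan nuclear receptor, stood at 10.6, 4.85 and 3.85 CPM in basal and at 3.88, 0.131 and 0.416 CPM at sample 2 (-2.94 ± 0.61, edgeR adjusted p = 0.273). For IER5 the value was -2.93 ± 0.83 (adjusted p = 0.549), and both genes were at low levels.

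Clock genes did not share a direction. Of 22 tested none passed, with a median of -0.24. At an unadjusted p under 0.05 there were 3 higher and 5 lower (2.46% and 3.18% over all genes). NR1D2, a repressor of the clock, stood at 46.6, 18.8 and 41.6 CPM in basal and at 16.5, 14.1 and 10.4 CPM at sample 2 (-1.32 ± 0.27, edgeR adjusted p = 0.261). CRY2 and PER3, also repressors in the clock, had log2 fold changes of -0.61 ± 0.14 and -0.80 ± 0.19, and DBP, an output gene, one of -0.72 ± 0.26. ARNTL, the activator they oppose, stood at 1.12, 2.49 and 3.22 CPM in basal and at 7.02, 5.98 and 4.91 CPM at sample 2 (1.40 ± 0.40, edgeR adjusted p = 0.548). ARNTL and DBP were picked after their values were seen. These 5 were among 8 of the 22 clock genes whose groups did not overlap, 3 higher and 5 lower, beside 7.8% over all genes. The hour of each biopsy is not in the labels.

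Of 14 muscle-secreted factors none passed, with a median of 0.31. At an unadjusted p under 0.05 there were 4 higher and 1 lower (2.46% and 3.18% over all genes). The lower one was BDNF, a neurotrophin, with 2.74, 1.97 and 2.24 CPM in basal and 0.720, 0.562 and 0.349 CPM at sample 2 (-2.14 ± 0.36, edgeR adjusted p = 0.154). VEGFA, the vascular growth factor, stood at 98.0, 57.3 and 60.7 CPM in basal and at 168, 165 and 152 CPM at sample 2, without overlap (1.21 ± 0.24, edgeR adjusted p = 0.258). The list median was -0.05 without basal of dog 4.

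Of 20 myogenic and growth control genes 3 were higher and 0 lower at an unadjusted p under 0.05 (2.46% and 3.18% over all genes). The list median was nevertheless -0.12. MYOG, which acts after MYOD1 in the muscle lineage, stood at 3.98, 3.03 and 3.22 CPM in basal and at 5.78, 12.3 and 15.4 CPM at sample 2 (1.54 ± 0.40, edgeR adjusted p = 0.425). As with MYOD1, dog 2 differed least. PPARGC1A, the coactivator of mitochondrial genes, stood at 38.6, 28.6 and 41.0 CPM in basal and at 72.4, 67.7 and 56.6 CPM at sample 2 (0.87 ± 0.23, edgeR adjusted p = 0.424), and its groups did not overlap.

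In 3 lists of abundant genes no member had an unadjusted p under 0.05 in either direction. They were 37 ribosomal protein genes (median -0.01), 32 nuclear genes of oxidative phosphorylation (0.12) and 13 mitochondrially encoded genes (-0.14). The mitochondrially encoded genes had medians of -0.05, 0.91 and -0.91 in dogs 2, 3 and 4, and MT-CO1, a subunit of cytochrome c oxidase, went from 1680 to 3698 CPM in dog 3 and from 4206 to 1415 CPM in dog 4. Their direction thus differed between dogs.

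**Figure D4:**
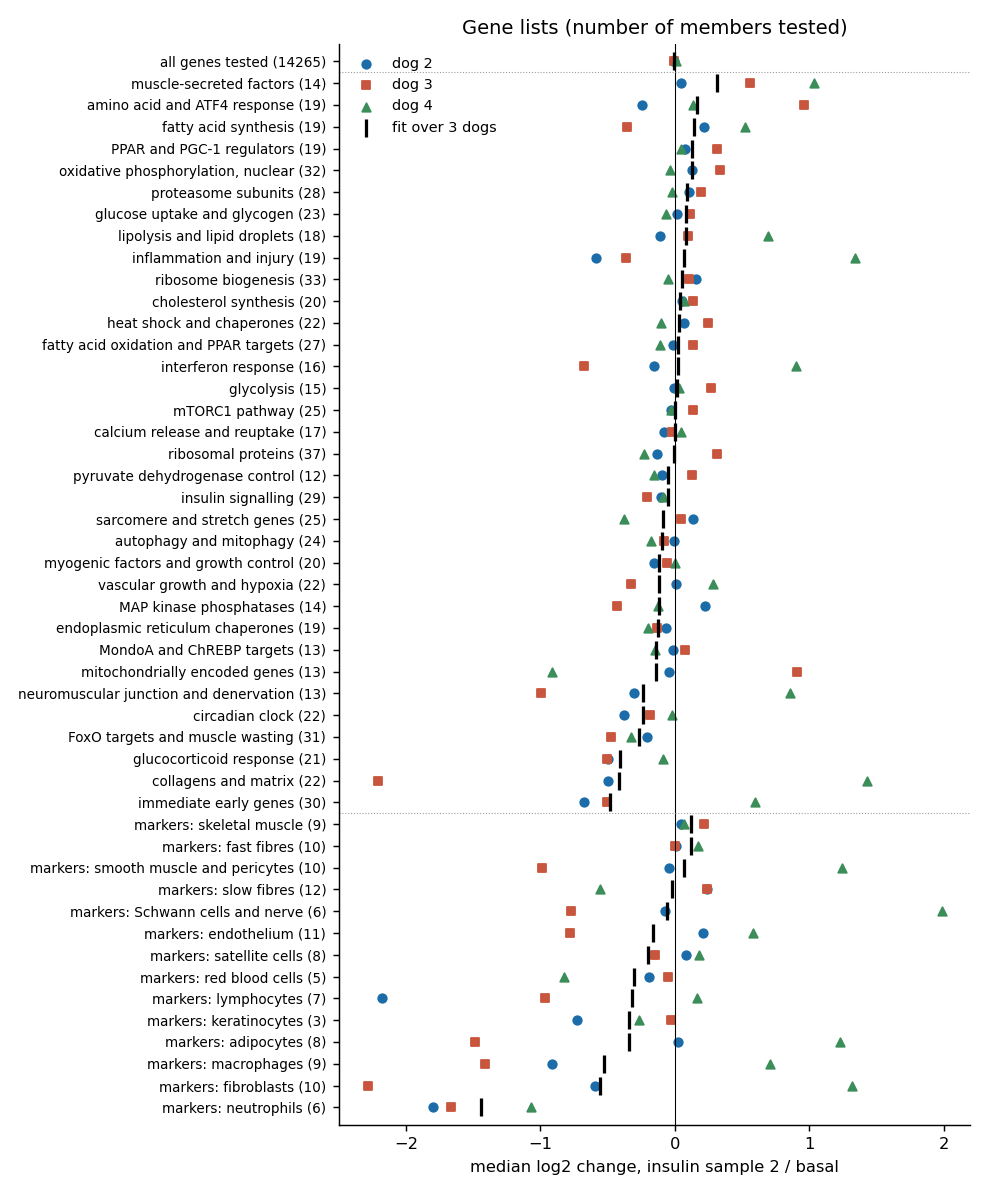
Median log2 change at insulin sample 2 against basal for each gene list, with the number of members tested in brackets. Coloured symbols are the medians of the single dogs and black bars those of the fit over 3 dogs. Matrix, fibroblast and several other non-muscle lists have dogs 3 and 4 on opposite sides of 0, while 9 lists have all 3 dogs below 0: FoxO targets, insulin signalling, glucocorticoid response, circadian clock, autophagy, endoplasmic reticulum chaperones and the markers of neutrophils, red blood cells and keratinocytes. Cholesterol synthesis, muscle-secreted factors, PPAR and PGC-1 regulators and the skeletal muscle markers have all 3 dogs above 0. Some medians are very small, such as -0.0037 for autophagy in dog 2, where all genes had -0.0094. List directions were not tested.

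The dogs' own changes had little in common across the whole table. Over 14265 genes, which are not independent replicates, Pearson's r between the log2 changes was 0.147 for dogs 2 and 3, 0.0224 for dogs 2 and 4 and -0.215 for dogs 3 and 4. The same sign was found in 54.5%, 51.1% and 42.1% of genes. Over the 2671 genes with a mean log2 CPM of at least 5, r was 0.259, 0.225 and -0.029. Dog 3 had 714 genes over 2-fold higher and 1948 over 2-fold lower, and dog 4 had 1664 and 736.

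Genes of the extracellular matrix showed this most plainly. Of 28 tested genes on the collagen and matrix or fibroblast lists, 24 were lower at sample 2 in dog 2, 28 were lower in dog 3 and 28 were higher in dog 4, with medians of -0.59, -2.21 and 1.34. DCN, the proteoglycan decorin, went from 357 to 192 CPM in dog 2, from 1163 to 236 CPM in dog 3 and from 155 to 333 CPM in dog 4. MMP2, a gelatinase, went from 12.9 to 8.35, from 90.6 to 8.21 and from 4.66 to 11.7 CPM. None of the 22 collagen and matrix genes had an unadjusted p under 0.05. The list median was -0.42 in the fit and 0.65 without dog 3.

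The summed level of the 10 fibroblast markers, all tested and none at 0 in every library, was 985, 4237 and 442 CPM in basal and 627, 776 and 1073 CPM at sample 2. The basal library of dog 3 stood apart. Endothelial markers summed to 125, 550 and 188 CPM in basal and to 142, 280 and 306 CPM at sample 2. In bulk tissue, fewer cells of a type and less RNA per cell cannot be told apart. The 9 skeletal muscle markers had a median of 0.12 and no member at an unadjusted p under 0.05. The part of connective tissue content in the changes of single genes was not tested.

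**Figure D5:**
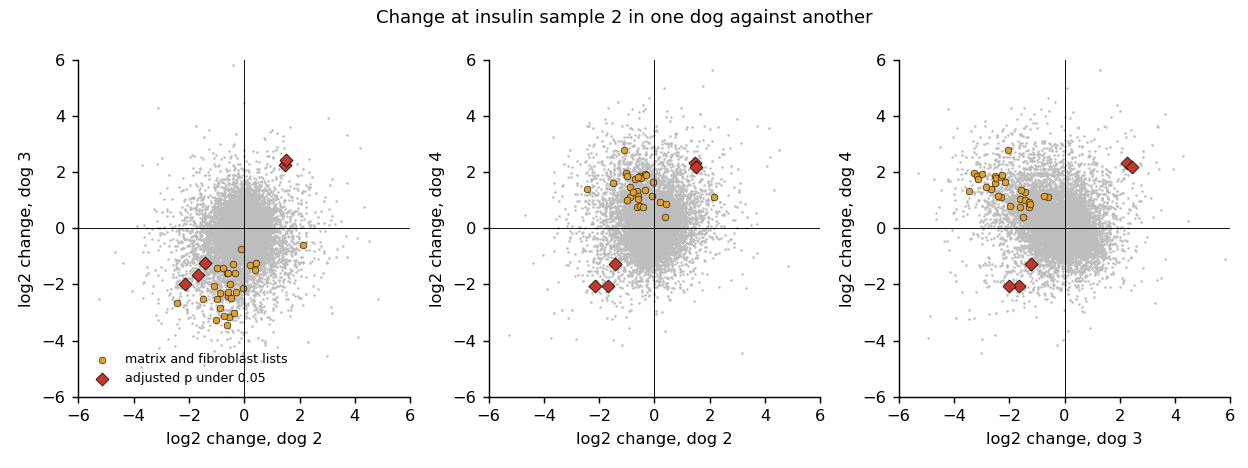
Log2 change at insulin sample 2 against basal in each dog plotted against that in another dog, for all genes tested (grey), the 28 genes of the matrix and fibroblast lists (orange) and the 5 genes past the adjusted threshold (red). The matrix genes lie below 0 in dog 3 and above 0 in dog 4, while the 5 genes keep their sign in all 3 dogs.

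Neutrophil markers were lower in each dog by median, with -1.80, -1.67 and -1.07 over 6 tested genes of 8 in the table. None passed, and 0 were higher and 4 lower at an unadjusted p under 0.05, beside 2.46% and 3.18% over all genes. CXCR2, the receptor of neutrophil chemokines, had 0.111, 0.373 and 0.280 CPM in basal and 0, 0.0187 and 0.0499 CPM at sample 2 (-3.34 ± 0.94, edgeR adjusted p = 0.510). S100A12, a calcium-binding protein of granulocytes, differed by -1.22 ± 0.39. The summed level of the 8 markers was 38.1, 87.6 and 31.2 CPM in basal and 23.7, 26.8 and 39.8 CPM at sample 2, so the sum was higher in dog 4 where the median was lower. None of the 8 was at 0 in all 6 libraries.

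Red cell markers summed to 43.3, 45.5 and 34.3 CPM in basal and to 41.3, 42.6 and 43.6 CPM at sample 2. Of 5 tested, 1 was higher and 1 lower at an unadjusted p under 0.05 (2.46% and 3.18% over all genes), and the median was -0.31. The higher one was SLC25A37, an iron carrier of mitochondria, with 10.4, 10.7 and 11.1 CPM in basal and 14.5, 13.9 and 13.3 CPM at sample 2 (0.38 ± 0.14, edgeR adjusted p = 0.83). The lower one, ALAS2, the haem synthesis enzyme of red cell precursors, stood at 0.967, 2.04 and 2.66 CPM in basal and at 0.314, 0.394 and 0.416 CPM at sample 2 (-2.32 ± 0.59, edgeR adjusted p = 0.418). The part of blood content in PPBP and in the lower neutrophil markers was not tested.

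Sample 2 was also compared with sample 1 of the same dogs, which asks whether muscle differed between the insulin samples. No gene passed (0%), with 260 genes (1.82%) at an unadjusted p under 0.05 in edgeR, 119 higher (0.834%) and 141 lower (0.988%), and, in DESeq2, 0 called and 256 at an unadjusted p under 0.05. The 5 genes of lowest p were taken among those with a symbol and a mean log2 CPM of at least 1. They were GTDC1 (log2 fold change 0.94 ± 0.21), TRIM45 (0.52 ± 0.13), ACTC1, the cardiac actin (-1.05 ± 0.27), LMOD2 (-0.77 ± 0.21) and NCAPH2, a condensin subunit (0.47 ± 0.13). LMOD2 stood at 13.1, 8.87 and 11.2 CPM at sample 1, between its basal and sample 2 levels in each dog.

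Sample 1 and sample 2 share their basal libraries, so their fold changes against basal are not independent and are set side by side. TXNIP differed from basal by -1.71 ± 0.15 at sample 1 and -1.80 ± 0.15 at sample 2, TRIM63 by -2.33 ± 0.18 and -2.06 ± 0.17, and ZFAND5 by -1.09 ± 0.12 and -1.31 ± 0.12. SLC35E4 differed by 2.05 ± 0.20 and 2.02 ± 0.20, and SLC25A25 by 2.12 ± 0.21 and 2.05 ± 0.21. Between the samples themselves the differences, sample 2 less sample 1, were -0.09 ± 0.14 for TXNIP, 0.27 ± 0.17 for TRIM63, -0.22 ± 0.12 for ZFAND5, -0.03 ± 0.19 for SLC35E4 and -0.07 ± 0.20 for SLC25A25. None of these 5 had an unadjusted p under 0.05. PDK4 differed by -3.27 ± 0.51 at sample 1 and by -3.92 ± 0.53 at sample 2, and by -0.65 ± 0.46 between them.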

How the data were processed

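RNA from flash-frozen biopsies was copied to cDNA with a SMART-Seq kit, tagged with Nextera XT and sequenced on a NovaSeq instrument, per the labels' protocols. Raw read counts per gene were deposited by the authors as whole numbers for 30951 Ensembl genes, and only these were tested. A normalized signal deposited by the authors beside each count was used only to check the columns. The submitters' processing notes name Bowtie 0.12.2 and CanFam3.1 without a role. The counting program, the annotation and whether strand was used are not given in the sources used here. This kit does not mark strand, so counts may include overlapping or antisense transcripts.

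Counts of 9 libraries (dogs 2, 3 and 4 at samples 0, 1 and 2) were fitted in R 4.3.3 with edgeR 4.0.16 (filterByExpr, TMM, robust quasi-likelihood), with dog as a block and 4 residual degrees of freedom. The pairing comes from the dog numbers in the titles. Deviations from the group means correlated between basal and sample 2 of the same dog at 0.496, 0.162 and 0.0136 in dogs 2, 3 and 4, and from -0.397 to 0.292 between different dogs. Only the basal library of dog 2 correlated most with sample 2 of its own dog. Basal of dog 3 correlated more with sample 2 of dog 4 (0.292), and basal of dog 4 more with sample 2 of dog 3 (0.04). Libraries of a group differed by a chi-square per gene of 133 to 314, so none was a duplicate. P values were adjusted by Benjamini-Hochberg over all 14265 genes with a threshold of 0.05. CPM of single genes uses TMM-adjusted totals, while summed marker levels use unadjusted library totals. Each SE was derived from the log2 fold change and the test statistic. DESeq2 1.42.0 was an alternative, beside RLE scaling, other filters, other sets of libraries, no block, no robust estimation and leaving out dogs or libraries. The edgeR fit was also run on simulated counts that had the same change in every dog. The real dogs differed in their changes, so that run does not show how reliable the calls here are.

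Named genes were the 12 of lowest p in each direction (those passing first) with a symbol, a mean log2 CPM of at least 1 and the same direction in 3 dogs, up to 3 members of lowest p per list, 16 genes whatever their result, and 5 genes for sample 2 against sample 1. Those 5 had the lowest p among genes with a symbol and a mean log2 CPM of at least 1. The 48 lists held 924 symbols, of which 809 were in the table. The genes and lists were chosen with earlier results of these data known. Lists not described in the text held no gene past the threshold. Not every gene under the rule is reported here.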

Additional observations from a re-analysis of the deposited data

Results flagged for a closer look

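In groups of 4 libraries, on the CPM scale of all 13 libraries, 38 combinations of gene and group were looked at for a library far from the others, and chance flags about 1 in 20. SLC25A25 at sample 2 stood at 10.4 CPM in dog 1, which has no basal library, and at 44.8, 50.8 and 57.0 CPM in dogs 2, 3 and 4. The level in dog 1 lies within the basal range of the other dogs. TRIM63 at sample 1 stood at 57.0 CPM in dog 2, and at 26.2, 28.5 and 29.2 CPM in dogs 3, 1 and 4. MYOD1 at sample 1 stood at 5.60 CPM in dog 1, and at 13.3, 13.7 and 14.7 CPM in dogs 4, 3 and 2. In data outside the comparison, SLC35E4 at sample 2 of dog 1 stood at 7.66 CPM, above the highest basal library at 4.18 CPM. In the same library ZFAND5 stood at 246.9 CPM, within the basal range of 236.1 to 390 CPM and above sample 2 of dogs 2, 3 and 4 at 145.9, 100.9 and 123.8 CPM. TXNIP and TRIM63 stood there at 38.1 and 11.4 CPM, below every basal library.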

How the results depend on the processing

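With 3 dogs and 4 residual degrees of freedom, the number of genes called for sample 2 against basal (5) moved with the method. It was 126 with DESeq2, 72 without a filter on low counts and 0 without the dog as a block, where the pairing was ignored. It ran from 0 to 23 with a dog or library left out, and was within 1.5 times the count of 5 with RLE scaling, a 1 CPM filter, 6 libraries, 13 libraries or no robust estimation, although 2 and 3 of the 5 genes were kept with 6 and 13 libraries. Sample 2 against sample 1 gave 0 in every setting run. Of 1519 values over 90 genes, 33 lost a call, 111 gained one and 20 changed sign, for genes with no call. With 13 libraries, HK2 went from 0.05 to -0.22 and TRIM45 from 0.07 to -0.057. Over the fits that left out a dog or library, values ran from -2.27 to 0.37 for MMP2, -1.68 to 0.17 for DCN, -0.037 to 0.63 for SREBF1, -0.98 to 0.61 for MT-CO1, -0.034 to 0.17 for NCAPH2, -0.025 to 0.12 for TRIM45, -0.10 to 0.17 for HK2 and -0.49 to 0.24 for INSR. Low genes such as CXCR2 and IRS2 rest on few counts, as does PPBP at sample 2. The cause of these moves was not tested.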

Other observations

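Other processes of muscle upkeep held no gene past the adjusted threshold. Of 24 autophagy genes 0 were higher and 3 lower at an unadjusted p under 0.05, with a median of -0.09. The shares over all genes, which also stand beside the counts below, were 2.46% higher and 3.18% lower. ATG14, which directs autophagosome formation, stood at 4.28, 4.10 and 4.99 CPM in basal and at 2.36, 2.17 and 2.78 CPM at sample 2 (log2 fold change -0.87 ± 0.25, edgeR adjusted p = 0.549). The 28 proteasome subunits had none in either direction and a median of 0.09. Of 22 heat shock genes 1 was higher and 1 lower: HSPH1, a chaperone (0.52 ± 0.21), and DNAJB4, a cochaperone, with 311, 93.0 and 123 CPM in basal and 86.4, 66.6 and 45.6 CPM at sample 2 (-1.31 ± 0.34, edgeR adjusted p = 0.454). Of 19 chaperones and related genes of the endoplasmic reticulum 0 were higher and 1 lower, HERPUD1 (-0.57 ± 0.13), whose groups did not overlap.

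Among growth and signalling genes, RRS1, of 33 ribosome biogenesis genes (2 higher, 0 lower, median 0.06), differed by 0.55 ± 0.18, and FLCN, of 25 mTORC1 pathway genes (1 higher, 1 lower, median 0.00), by 0.50 ± 0.14. These counts are at an unadjusted p under 0.05, where 2.46% were higher and 3.18% lower over all genes. PERM1, a muscle regulator of mitochondrial genes, stood at 109, 88.7 and 112 CPM in basal and at 130, 151 and 185 CPM at sample 2 (0.59 ± 0.15, edgeR adjusted p = 0.418). DOK7, an organizer of the neuromuscular junction, had groups that did not overlap (1.02 ± 0.28). SDC4, a surface proteoglycan listed with satellite cells, stood at 19.3, 13.7 and 19.5 CPM in basal and at 35.7, 24.9 and 27.0 CPM at sample 2 (0.74 ± 0.15, edgeR adjusted p = 0.250). The 8 markers of those cells had a median of -0.20, with 0.08, -0.15 and 0.18 in dogs 2, 3 and 4. At an unadjusted p under 0.05, 2 of them were higher and 1 lower. Their summed level was 55.7, 64.0 and 52.3 CPM in basal and 65.0, 69.3 and 85.5 CPM at sample 2. The sum was thus higher in every dog, although the median was negative. Of 598 long noncoding RNA genes tested none passed, with 14 higher and 13 lower at an unadjusted p under 0.05, beside 2.46% and 3.18% over all genes.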
